A study of Mus musculus with 23 samples.

Results

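Bdnf, Ntf3, Ntrk2, Ntrk3, Ngfr, Sort1 and Vgf encode 2 neurotrophins, 4 of their receptors and a secreted neuropeptide precursor known to be induced by neurotrophins. They were picked by gene symbol as ligands, receptors and a target of one family, with earlier results of these data known, and all 7 were present among the 13766 gene records of the mouse hippocampus table. Neurotrophins are small secreted proteins, made as longer proneurotrophins and cut to their mature form by proprotein convertases. Mature BDNF binds the receptor tyrosine kinase TrkB (Ntrk2) and mature neurotrophin-3 binds TrkC (Ntrk3), and both switch on Ras-MAPK, PI3K-Akt and phospholipase C signalling. The proneurotrophins bind the death-domain receptor p75NTR (Ngfr) together with sortilin (Sort1), which also sorts proBDNF inside the cell. In the adult hippocampus BDNF is known for its part in long-term potentiation and memory.

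The study measured RNA in hippocampi dissected from 23 mice of the FCG model (C57Bl/6J background) at about 12 months of age. In these animals the testis-determining gene Sry is missing from the Y chromosome and is carried as an autosomal transgene, so sex chromosomes and gonads are inherited apart. The 5 XXF mice were XX and bore ovaries, the 6 XXM mice were XX and bore testes, the 6 XYF mice were XY and bore ovaries, and the 6 XYM mice were XY and bore testes. No group received a treatment per the labels, gonads were left in place as far as the labels say, and cages were assigned by the look of the genitalia at weaning, so cage type and gonad cannot be told apart. The design asks whether a level follows the sex chromosomes, the gonad or their combination. Each library came from its own numbered animal.

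Totals over the listed genes ran from 10257751 to 36078221 estimated counts per library. Markers of hippocampal neurons and glia were present in every library. In 7 libraries a list of choroid plexus genes summed to 3320 to 5869 CPM (counts scaled to a common library total), against 291 to 573 CPM in the other 16. These choroid-rich libraries were 1 of 5 in XXF, 4 of 6 in XXM, 1 of 6 in XYF and 1 of 6 in XYM, and all 9 meningeal and fibroblast genes summed together were also higher in them (243 to 365 against 91.9 to 201 CPM). One XY library, XYF replicate 4, held Xist at 94.1 CPM, where the other 11 XY libraries held at most 2.86 CPM. Values without these libraries stand beside several results below, and the part that the added tissue plays was not tested.

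Levels are given as CPM, and group means with ± SD over the 5 XXF libraries or the 6 of another group. Between genes they are compared per kilobase of merged exons, since longer transcripts gather more reads. On that scale, averaged over all 23 libraries, Sort1 was the highest of the members at 129 ± 7.94 CPM per kb (SD, n = 23). Vgf followed at 40.9 ± 6.02 and Ntrk2 at 37.3 ± 3.37 CPM per kb. Bdnf was lower at 8.11 ± 0.783, then came Ntrk3 at 5.26 ± 0.509 and Ntf3 at 4.37 ± 0.655, and Ngfr was the lowest at 0.738 ± 0.235 CPM per kb. When the longest coding transcript was used as the length, Ntrk2 (67.6 CPM per kb) moved above Vgf (42.6 CPM per kb) and the order of the other 5 stayed. Neighbours in this order whose mean ± SD ranges met were Vgf with Ntrk2, and Ntrk3 with Ntf3.

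**Figure D1:**
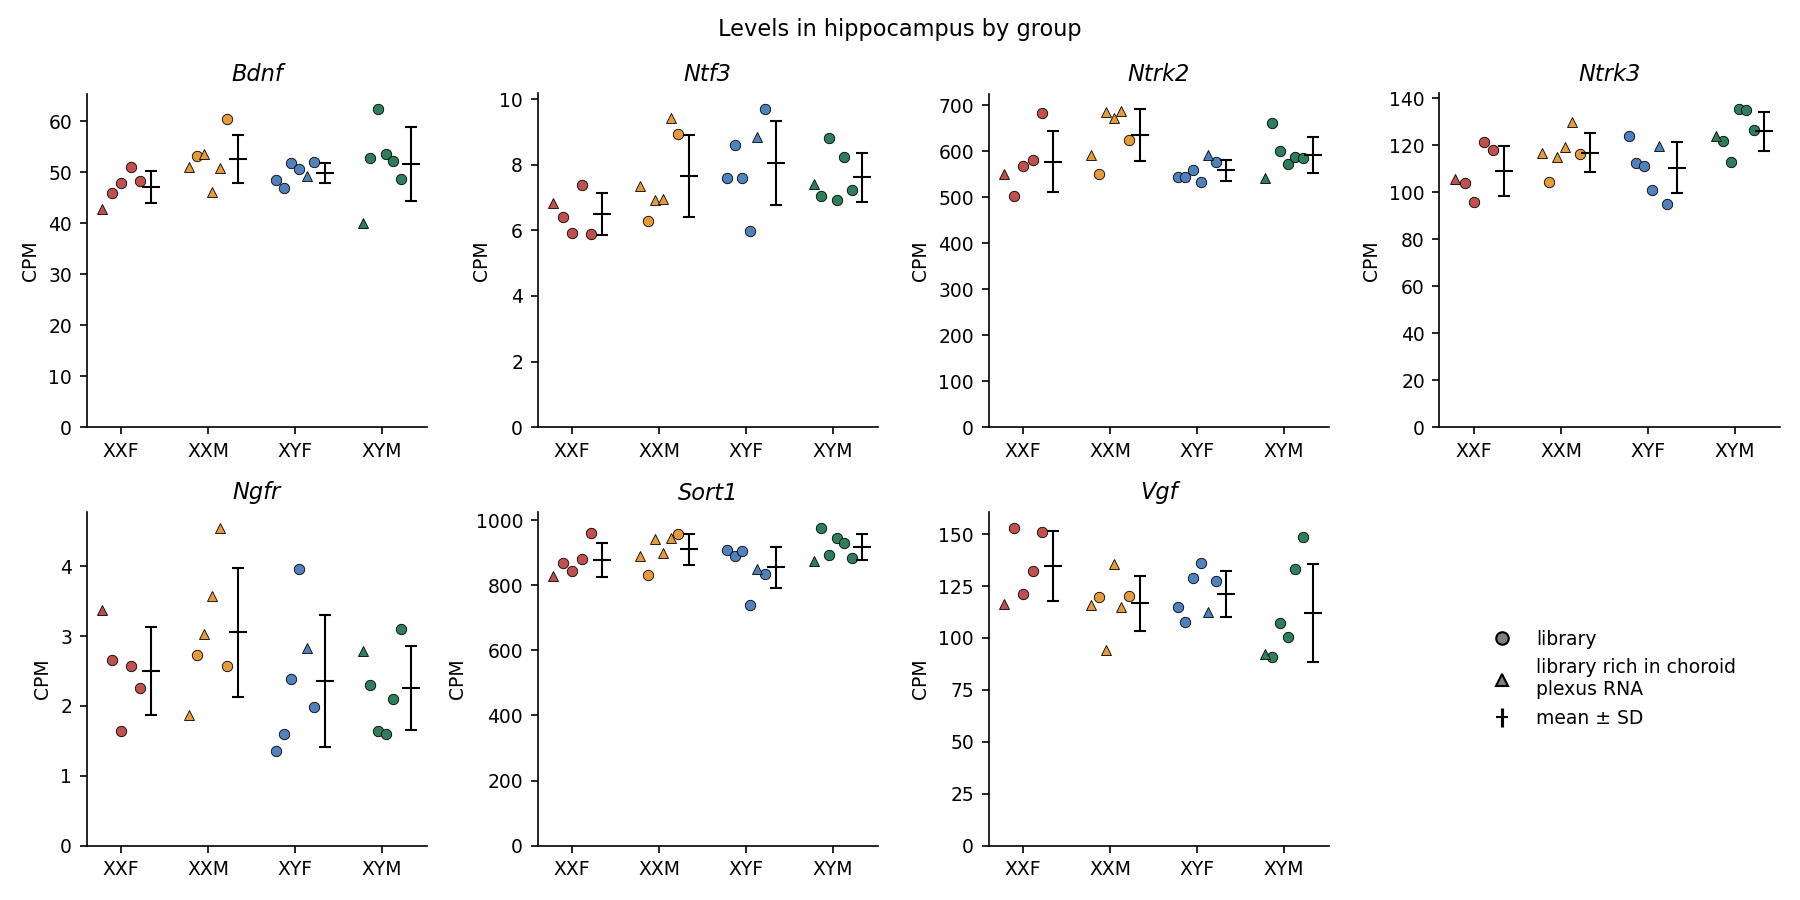
Level of each member in CPM (y axis, from 0) in the 4 groups (x axis), with 1 point per library, triangles for the 7 choroid-rich libraries, and the group mean ± SD beside the points. Groups overlapped for every member, and the scatter within a group was widest for Ngfr.

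The tests asked for 3 contrasts and 6 pairwise comparisons, each fitted with edgeR's quasi-likelihood F test, and p-values were adjusted by Benjamini-Hochberg across 13766 genes. The sex chromosome effect is XY minus XX averaged over gonads, and the gonad effect is testes minus ovaries averaged over sex chromosomes. The interaction is the gonad effect in XY minus that in XX. No member passed an adjusted p of 0.05 in any of the 9 comparisons, and the count was also 0 with DESeq2 and with limma. Over all genes the sex chromosome effect called 0.283%, the gonad effect 0.160% and the interaction 0%. The pairwise comparisons called 0.291% of all genes for XYF against XXF, 0.116% for XYM against XXM, 0% for XXM against XXF, 0.225% for XYM against XYF, 0.131% for XYM against XXF and 0.501% for XXM against XYF. At an unadjusted p of 0.05 the members numbered 0 of 7 for the sex chromosome effect (6.78% of all genes), 3 of 7 for the gonad effect (13.6% of all genes) and 0 of 7 for the interaction (3.23% of all genes). In the pairwise comparisons, taken in the same order, they numbered 1, 0, 0, 1, 2 and 1 of 7, where 5.17%, 5.29%, 7.71%, 8.63% and 10.1% of all genes passed that threshold in the first 5 and 1377 of 13766 in the last. The 3 of the gonad effect were Ntrk3, Ntrk2 and Sort1, all receptors and all estimated higher with testes. Without the choroid-rich libraries, 5 of 12 with testes and 2 of 11 with ovaries, none of the 3 passed it. The 1 member that did was the ligand Bdnf, where 708 of 13766 genes passed, and that subset kept 2 of the 6 XXM libraries. A choroid plexus covariate, the mean log2 CPM of the choroid plexus list, was also fitted over all 23 libraries. With it these 3 and Bdnf passed, 4 of 7 members, where 1617 of 13766 genes passed. Leaving out 1 library gave 1 to 4 members for the gonad effect, with 1 left without XXF replicate 2, XXM replicate 5 or XYM replicate 2. For the sex chromosome effect it gave 0 to 2, of which 2 were Ntf3 and Ngfr without XYF replicate 4, and 1 each without XXF replicate 2, XXM replicates 2, 5 and 6 and XYM replicate 6. For the interaction it gave 0 to 1, with 1 without XXF replicate 4, XXM replicate 2, XYF replicate 4 or XYM replicate 3. The number of all genes that passed also differed between these fits. Without XYF replicate 4 it was 931 of 13766 for the sex chromosome effect, 1654 for the gonad effect and 432 for the interaction. Without XYF replicate 5 it was 2380 for the gonad effect. For most of these fits that number is not given here, so their member counts cannot be set against it. For the gonad effect 6 of the 7 estimates lay above 0, with a median of 0.10 on the log2 scale, where 49.0% of all genes lay above 0 with a median of -0.0022.

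**Figure D2:**
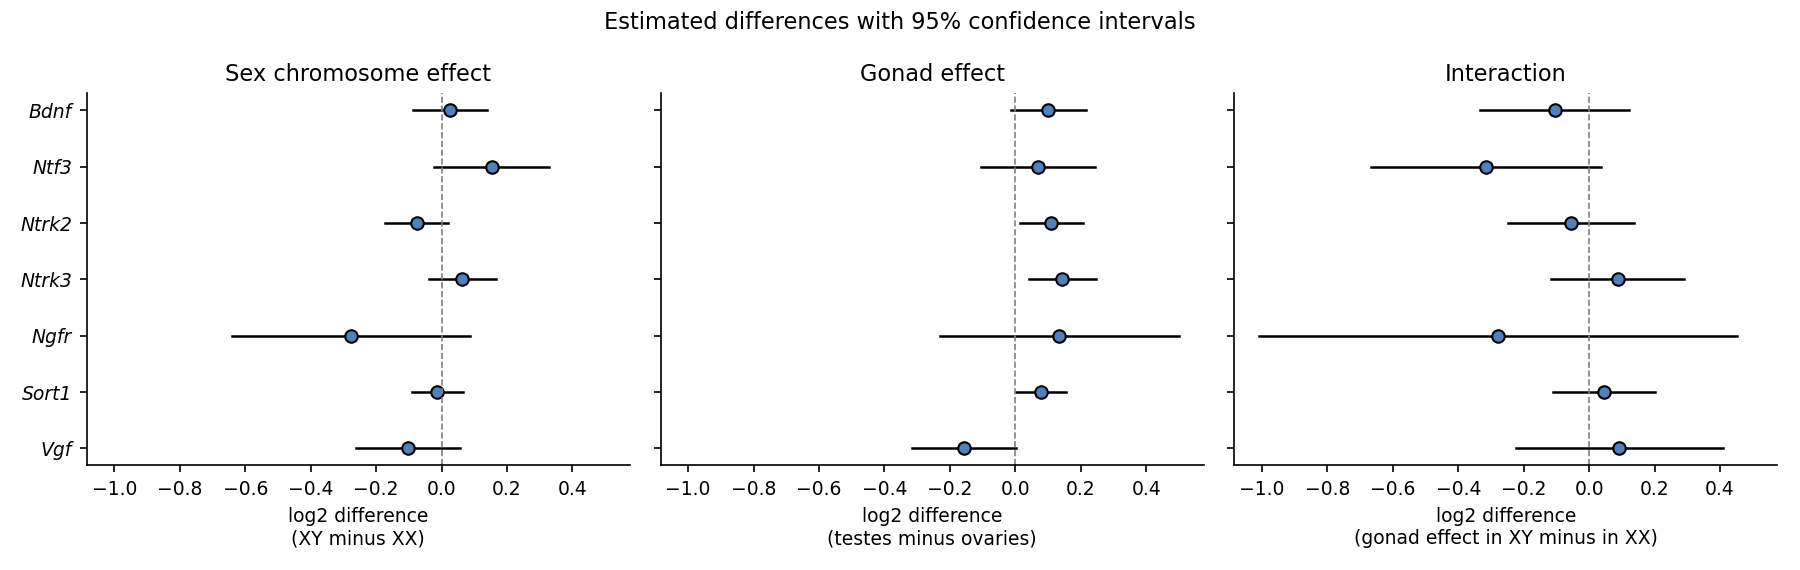
Estimated log2 differences (x axis) for each member (y axis) with their 95% confidence intervals, for the sex chromosome effect, the gonad effect and the interaction. Intervals of Ntrk2, Ntrk3 and Sort1 lay above 0 for the gonad effect before adjustment over genes, and the interval of Ngfr was the widest in each panel.

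Among the ligands, Bdnf encodes brain-derived neurotrophic factor and lies on chromosome 2 from 109674700 to 109727043, on the plus strand of mm10. It is transcribed from several alternative starts joined to a shared coding exon, and the table sums over them. RefSeq's GRCm38.p6 annotation gave 7 starts for the gene. Activity-dependent transcription of Bdnf is known to use CREB, which binds the cAMP response element, so the 250 bases before each start were searched on both strands for TGACGTCA and for TGACGTGA, a variant of it. The perfect element was in 0 of the 7 windows and in 1.55% of all 32851 RefSeq windows of that length. The variant was in 1 of the 7 and in 0.350% of all windows, and its first base lay 38 bases before the start. The 50 bases before that start are shown with the variant, read on the other strand, in capitals, beside the 50 bases before the next start downstream, which hold none. Both windows are outside the annotated exons of Bdnf, and exons of other genes were not checked.
Bdnf, chr2:109692386-109692435, plus strand: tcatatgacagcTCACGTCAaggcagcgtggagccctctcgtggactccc
Bdnf, chr2:109692977-109693026, plus strand: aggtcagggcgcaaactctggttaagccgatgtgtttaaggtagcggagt
A match is a run of letters, and use of the separate starts cannot be read from a table with 1 value per gene.

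Bdnf stood at 42.7, 45.8, 47.8, 51.1 and 48.2 CPM in the 5 XXF libraries. In XXM it ran from 46.2 to 60.5 CPM (median 52.0), in XYF from 46.9 to 52.0 CPM (median 49.98) and in XYM from 40.1 to 62.3 CPM (median 52.5). Each group overlapped the others, XYF was the tightest and XYM held both the lowest and the highest library of the study. Means from low to high were 47.1 ± 3.10 CPM for XXF, 49.8 ± 2.00 for XYF, 51.6 ± 7.23 for XYM and 52.5 ± 4.71 for XXM, and the libraries of each neighbouring pair overlapped. The gonad effect on Bdnf was 0.10 on the log2 scale (95% confidence interval -0.01 to 0.21, unadjusted p = 0.0790, edgeR adjusted p = 0.424). Its sex chromosome effect was 0.03 (-0.09 to 0.14, edgeR adjusted p = 0.973), and the interval leaves a difference above 1.10-fold outside it. The choroid-rich libraries averaged 47.6 ± 4.85 CPM (SD, n = 7) and the others 51.6 ± 4.50 CPM (SD, n = 16). Without the choroid-rich libraries the gonad effect was 0.17 (unadjusted p = 0.00714, edgeR adjusted p = 0.638) and the sex chromosome effect -0.01 (edgeR adjusted p = 0.999). With the choroid plexus covariate the gonad effect was 0.14 (unadjusted p = 0.0120, edgeR adjusted p = 0.294). Of the merged exons of Bdnf, 14.4% lie opposite exons of the antisense gene Gm45346, and the sources used here do not give the strand setting of the counting, so Bdnf reads may include reads of that gene.

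**Figure D3:**
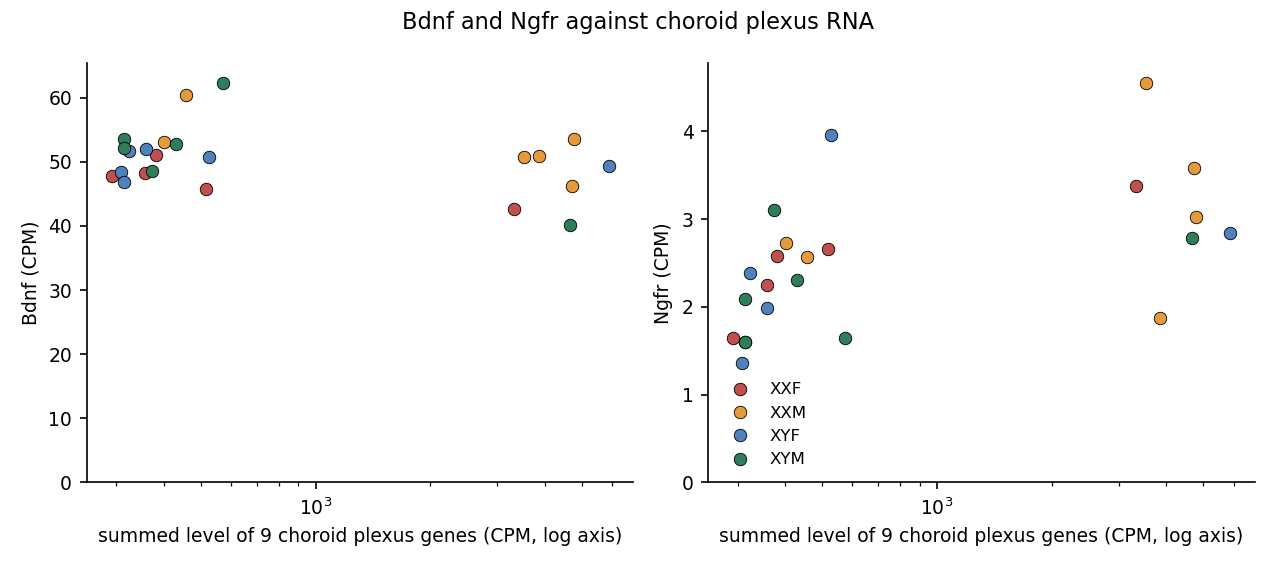
Bdnf (left) and Ngfr (right) in CPM (y axis, from 0) against the summed level of 9 choroid plexus genes (x axis, log scale), with 1 point per library coloured by group. Bdnf averaged 47.6 CPM in the 7 choroid-rich libraries at the right and 51.6 CPM in the other 16, and Ngfr averaged 3.15 and 2.28 CPM.

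Ntf3 encodes neurotrophin-3, the preferred ligand of TrkC (chromosome 6, 126101412 to 126166744, minus strand). Its 5 XXF libraries held 6.84, 6.39, 5.92, 7.39 and 5.87 CPM. XXM ran from 6.30 to 9.43 CPM (median 7.17), XYF from 5.98 to 9.69 CPM (median 8.11) and XYM from 6.93 to 8.82 CPM (median 7.32). The XXF libraries sat at the low end, yet the lowest XYF library lay within their range. In order, the group means were 6.49 ± 0.642 in XXF, 7.61 ± 0.752 in XYM, 7.65 ± 1.24 in XXM and 8.05 ± 1.29 CPM in XYF. XYF was above XXF by 0.31 on the log2 scale (SE 0.126, 95% confidence interval 0.05 to 0.57), with an unadjusted p of 0.0204 and an edgeR adjusted p of 0.821. XYM and XXM differed by 0.00 (-0.24 to 0.24). The interaction for Ntf3 was -0.31 (-0.67 to 0.04, edgeR adjusted p = 0.999), so a dependence of the sex chromosome difference on the gonad was not established. Without XYF replicate 4, the library with Xist reads, XYF was above XXF by 0.38 (edgeR adjusted p = 0.472) and the interaction was -0.38 (unadjusted p = 0.0265). The XYF against XXF difference was 0.30 without the choroid-rich libraries, with an unadjusted p of 0.0623.

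The ligand pair shares stretches of coding sequence, which bears on whether reads could be assigned to the wrong gene. The longest run common to Bdnf and Ntf3 transcripts was 17 bases, and the longest common to Ntrk2 and Ntrk3 was 23 bases, both within the coding sequence. Reads were 100 bases from each end, longer than either run.
Bdnf and Ntf3: atagacacttcctgtgt
Ntrk2 and Ntrk3: gacccactcatcatggtctttga
The gene of neurotrophin-4 (Ntf5, also called Ntf4) was not analysed here.

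Among the receptors, Ntrk2 encodes TrkB, the receptor of BDNF, which in brain is made both by neurons, with its kinase, and by astrocytes, mostly as a form without it (chromosome 13, 58806596 to 59129967, plus strand). The table does not separate the forms. XXF libraries held 549, 503, 569, 581 and 683 CPM. XXM ran from 550 to 687 CPM (median 648), XYF from 533 to 591 CPM (median 552) and XYM from 542 to 660 CPM (median 586). Of the 6 XXM libraries 5 lay above every XYF library, the lowest of these only just, and the remaining one lay within the XYF range. Means were 558 ± 22.2 in XYF, 577 ± 66.4 in XXF, 591 ± 39.3 in XYM and 635 ± 56.0 CPM in XXM. The gonad effect was 0.11 on the log2 scale, or 1.08-fold (SE 0.0470, 95% confidence interval 0.01 to 0.21), with an unadjusted p of 0.0274 and an edgeR adjusted p of 0.311. XXM was above XYF by 0.19 (0.05 to 0.32, unadjusted p = 0.00815, edgeR adjusted p = 0.377). XXM held 4 of the 7 choroid-rich libraries, and without those 7, which left 2 XXM libraries, the XXM against XYF difference was 0.09 and the gonad effect 0.06, with unadjusted p of 0.347 and 0.291. With the choroid plexus covariate these values were 0.17 and 0.10. Their unadjusted p were 0.0217 and 0.0433 and their edgeR adjusted p 0.504 and 0.407.

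Ntrk3 encodes TrkC, the receptor of neurotrophin-3 (chromosome 7, 78192114 to 78577838, minus strand). It was at 106, 104, 95.6, 121 and 118 CPM in XXF. XXM ran from 104 to 130 CPM (median 116), XYF from 94.7 to 124 CPM (median 112) and XYM from 113 to 135 CPM (median 125). Of the XYM libraries 3 lay above every ovary-bearing library, and the rest overlapped. Group means were 109 ± 10.6 in XXF, 110 ± 11.01 in XYF, 117 ± 8.17 in XXM and 126 ± 8.47 CPM in XYM. The libraries of each neighbouring pair overlapped, though the XXM and XYM means lay 8.95 CPM apart, slightly more than either SD. Of the members Ntrk3 had the smallest p for the gonad effect, 0.14 on the log2 scale or 1.10-fold (SE 0.0495, 95% confidence interval 0.04 to 0.25). Its unadjusted p of 0.00762 ranked 467th among all genes and gave an edgeR adjusted p of 0.223. XYM was above XXF by 0.21 (0.06 to 0.35, edgeR adjusted p = 0.325) and above XYF by 0.19 (0.05 to 0.33, edgeR adjusted p = 0.460). Those comparisons share the XYM libraries. Without the choroid-rich libraries the gonad effect was 0.11 (edgeR adjusted p = 0.979). With the choroid plexus covariate it was 0.14 (edgeR adjusted p = 0.306).

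Ngfr encodes p75NTR, which in adult brain is best known from cholinergic neurons of the basal forebrain and is otherwise scarce (chromosome 11, 95568821 to 95587698, minus strand). Only 27 to 103 estimated counts per library fell on it, so counting error is large. In the library with 27 counts the 95% Poisson interval was 17.8 to 39.3 counts. XXF libraries held 3.38, 2.66, 1.65, 2.57 and 2.25 CPM. XXM ran from 1.88 to 4.55 CPM (median 2.88), XYF from 1.36 to 3.96 CPM (median 2.19) and XYM from 1.60 to 3.11 CPM (median 2.20). Every group spanned a wide range, and the highest library was 3.35 times the lowest. XY and XX libraries averaged 2.31 ± 0.760 (SD, n = 12) and 2.80 ± 0.816 CPM (SD, n = 11). The sex chromosome effect was -0.28 on the log2 scale (SE 0.177, 95% confidence interval -0.64 to 0.09, edgeR adjusted p = 0.843) and the gonad effect 0.13 (-0.23 to 0.50, edgeR adjusted p = 0.765). A difference of up to 0.641-fold in XY lies inside that first interval, so the depth does not settle it. Choroid-rich libraries averaged 3.15 ± 0.823 CPM (SD, n = 7) and the others 2.28 ± 0.669 CPM (SD, n = 16), and XYF replicate 4, which is not choroid-rich, was the highest of the XYF group. Without XYF replicate 4 the sex chromosome effect was -0.37 and the gonad effect 0.23, with unadjusted p of 0.0353 and 0.179 and edgeR adjusted p of 0.670 and 0.586. They were -0.18 and 0.11 without the choroid-rich libraries, and with a choroid plexus covariate -0.15 and 0.04, with unadjusted p from 0.358 to 0.821.

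Sort1 encodes sortilin, the sorting receptor that binds the pro part of BDNF and pairs with p75NTR (chromosome 3, 108284064 to 108361519, plus strand). XXF libraries held 827, 868, 845, 881 and 961 CPM. XXM ran from 832 to 959 CPM (median 921), XYF from 739 to 908 CPM (median 870) and XYM from 874 to 976 CPM (median 912). XYF replicate 4 was the lowest of all 23, and the other libraries of every group overlapped. Means were 854 ± 64.2 in XYF, 876 ± 51.6 in XXF, 911 ± 47.4 in XXM and 917 ± 40.2 CPM in XYM. The gonad effect was 0.08 on the log2 scale or 1.06-fold (SE 0.0377, 95% confidence interval 0.00 to 0.16), with an unadjusted p of 0.0474 and an edgeR adjusted p of 0.361. Without XYF replicate 4 it was 0.06 (unadjusted p = 0.0954), and without the choroid-rich libraries also 0.06 (unadjusted p = 0.295). With the choroid plexus covariate it was 0.09 (unadjusted p = 0.0276, edgeR adjusted p = 0.365). The sex chromosome effect was -0.01 (-0.09 to 0.06, edgeR adjusted p = 0.980), the narrowest interval of the 7 members. Exons of the antisense gene Gm12523 lie opposite 4.90% of its merged exons.

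Vgf encodes a neuropeptide precursor that is induced by neurotrophins and neuronal activity and stored in dense-core vesicles (chromosome 5, 137030295 to 137033351, plus strand). It was at 116, 153, 121, 132 and 151 CPM in XXF. XXM ran from 94.3 to 136 CPM (median 118), XYF from 107 to 136 CPM (median 121) and XYM from 91.0 to 149 CPM (median 104). The 2 highest libraries were XXF and the 2 lowest were XYM, but another XYM library stood at 149 CPM. Group means were 112 ± 23.6 in XYM, 117 ± 13.3 in XXM, 121 ± 11.2 in XYF and 135 ± 16.8 CPM in XXF. Vgf was the only member whose gonad estimate lay below 0, at -0.16 on the log2 scale (SE 0.0771, 95% confidence interval -0.32 to 0.00), with an unadjusted p of 0.0522 and an edgeR adjusted p of 0.369. XYM was below XXF by -0.26 (-0.49 to -0.03, unadjusted p = 0.0278, edgeR adjusted p = 0.420). Without the choroid-rich libraries these values were -0.15 and -0.26. Their unadjusted p were 0.130 and 0.0399 and their edgeR adjusted p 0.979 and 0.536. With the choroid plexus covariate the gonad effect was -0.13 (unadjusted p = 0.106, edgeR adjusted p = 0.524). The XYM against XXF difference was then -0.27 (unadjusted p = 0.0201, edgeR adjusted p = 0.349).

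Animals of 1 group differed more for some members than for others. The biological coefficient of variation, edgeR's estimate of the spread between libraries beyond counting error, was 26.5% for Ngfr, 13.2% for Ntf3 and 12.9% for Vgf. It was 9.19% for Bdnf, 8.44% for Ntrk2, 8.37% for Ntrk3 and 7.15% for Sort1, beside a median of 10.3% over all genes. Among the 1001 genes nearest to it in level, Vgf stood at the 95.8th percentile of this spread and Ngfr at the 79.9th. Ntrk2 stood at the 66.4th, Bdnf at the 65.7th and Ntrk3 at the 63.9th percentile. These 3 thus lay above the middle of genes at their level, though below the median over all genes. Sort1 was at the 32.9th and Ntf3 at the 29.9th percentile of their own neighbours, so the scatter of Ntf3 was ordinary for a gene at its level. The share of the variation in log2 CPM that lay between the 4 groups was 35.6% for Ntrk3 and 30.2% for Ntrk2 and was lowest for Ngfr at 15.5%, where the median over all genes was 14.2%.

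The wider pathway was read from 8 lists. Of 128 listed names 120 were in the table, and edgeR called 0 of them in each of the 9 comparisons. At an unadjusted p of 0.05 the lists held 6 genes for the sex chromosome effect (5.00%), 16 for the gonad effect (13.3%) and 2 for the interaction (1.67%), near the shares over all genes. Medians over the 120 were -0.01, 0.01 and 0.02 on the log2 scale. Of the 15 genes for proneurotrophin and neuropeptide processing 2 passed the unadjusted threshold for the gonad effect, and of 26 adaptors of Trk receptors and p75NTR 4 did. Of 16 Ras-MAPK genes 2 passed it, of 14 PI3K-Akt-mTOR genes 2, of 18 transcription regulators of Bdnf 3 and of 24 genes induced by BDNF or activity 2. Ntf4, Bex3 under either of its names, Crk, Hras and Egr2 were not analysed here.

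The smallest p of these lists belonged to Nptx2, which encodes neuronal pentraxin 2, a secreted protein that clusters AMPA receptors at excitatory synapses and is induced by activity. Nptx2 ran from 20.2 to 24.9 CPM in XXF (median 23.3) and from 17.3 to 26.6 CPM in XXM (median 23.2). In XYF it ran from 27.8 to 32.3 CPM (median 29.0) and in XYM from 22.3 to 33.3 CPM (median 26.1). Every XYF library lay above every XX library, while XYM overlapped the XX groups. The sex chromosome effect was 0.30 on the log2 scale or 1.23-fold (95% confidence interval 0.16 to 0.43), with an edgeR adjusted p of 0.0510, just above the threshold. That p fell under 0.05 in only 3 of the 23 fits that left out 1 library. It was 0.0471, 0.0204 and 0.0253 without XXM replicate 5, XXM replicate 6 and XYM replicate 4. DESeq2 gave an adjusted p of 0.00672 and limma voom 0.0450, so the call depends on the tool, and DESeq2 and limma voom each called only this gene of the 120 for the sex chromosome effect. Limma voom with sample quality weights gave 0.0317, and limma on the deposited log2 values gave 0.0821. The edgeR adjusted p was 0.0931 with the choroid plexus covariate and 0.0841 with log2 library total as a covariate. Of the 10 alternatives that did not leave out a single library, 3 brought the adjusted p under 0.05. Without the choroid-rich libraries the sex chromosome effect on Nptx2 was 0.24 (edgeR adjusted p = 0.913). Frs2, an adaptor that links Trk receptors to Ras, had the smallest p for the gonad effect, 0.13 (0.06 to 0.21, edgeR adjusted p = 0.149). Mtor, the kinase through which BDNF raises translation, had it for the interaction, 0.17 (0.02 to 0.33, edgeR adjusted p = 0.999).

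Whether members moved together between animals was asked on log2 CPM with each group's mean removed, over all 23 libraries. Each of the 21 pairs was tested with 100000 permutations of libraries within groups, 2-sided, and adjusted over the 21. No pair passed an adjusted p of 0.05, and 2 had an unadjusted p under it. Both involved Sort1. Its Pearson r with Ntrk2 was 0.57 (permutation p = 0.00396, adjusted p = 0.0832) and Spearman rho was 0.53 (permutation p = 0.0141, adjusted p = 0.148). Leaving out the 2 libraries farthest from the median of Ntrk2 gave r of 0.38. The pair had an adjusted p of 0.0462 without XXF replicate 2 and of 0.0475 without XYF replicate 5. Sort1 with Ntrk3 gave r of 0.59 (permutation p = 0.00945, adjusted p = 0.0992) and rho of 0.60 (permutation p = 0.00697, adjusted p = 0.146), and r of 0.61 without the 2 farthest libraries. Within the 16 libraries poor in choroid plexus RNA these r were 0.54 and 0.62. Ligand and receptor did not track each other detectably, with r of 0.22 for Bdnf with Ntrk2 (permutation p = 0.333, adjusted p = 0.700) and 0.20 for Ntf3 with Ntrk3 (permutation p = 0.409, adjusted p = 0.703). Ngfr and Sort1, which form the proneurotrophin receptor, gave r of -0.38 (permutation p = 0.122, adjusted p = 0.641).

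The same test set each member against 13 lists of cell type or region markers and against library depth, 98 relations in all. None passed after adjustment and 15 had an unadjusted p under 0.05. In bulk tissue a shift in a gene's level through fewer cells of a type and through less RNA per cell cannot be told apart. The highest r was that of Sort1 with CA3 pyramidal cell markers, 0.72 (permutation p = 0.000610, adjusted p = 0.0598), with rho of 0.68 (permutation p = 0.00102, adjusted p = 0.100) and r of 0.77 without the 2 farthest libraries. Without XYF replicate 4, which was lowest on both, it was 0.59 (adjusted p = 0.276), without XYM replicate 2 it was 0.74 (adjusted p just under the threshold) and without XYM replicate 3 it was 0.85 (adjusted p = 0.00392). Sort1 with pan-neuronal markers gave 0.62 (permutation p = 0.00445, adjusted p = 0.136). Ngfr went with thalamus markers at r of 0.66 (permutation p = 0.00357, adjusted p = 0.136) and with CA2 markers at 0.58 (permutation p = 0.00707, adjusted p = 0.139), which was 0.31 in the 16 choroid-poor libraries. Bdnf with interneuron markers gave 0.55 (permutation p = 0.00555, adjusted p = 0.136) and 0.30 in the choroid-poor libraries. Ntrk2 had its highest r with astrocyte markers, 0.49 (permutation p = 0.0192, adjusted p = 0.263). Depth gave r between -0.20 and 0.21 for every member. Choroid plexus and meningeal lists split the libraries into 2 clusters and were given no pooled r, and the septal list had only Ache in the table.

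**Figure D4:**
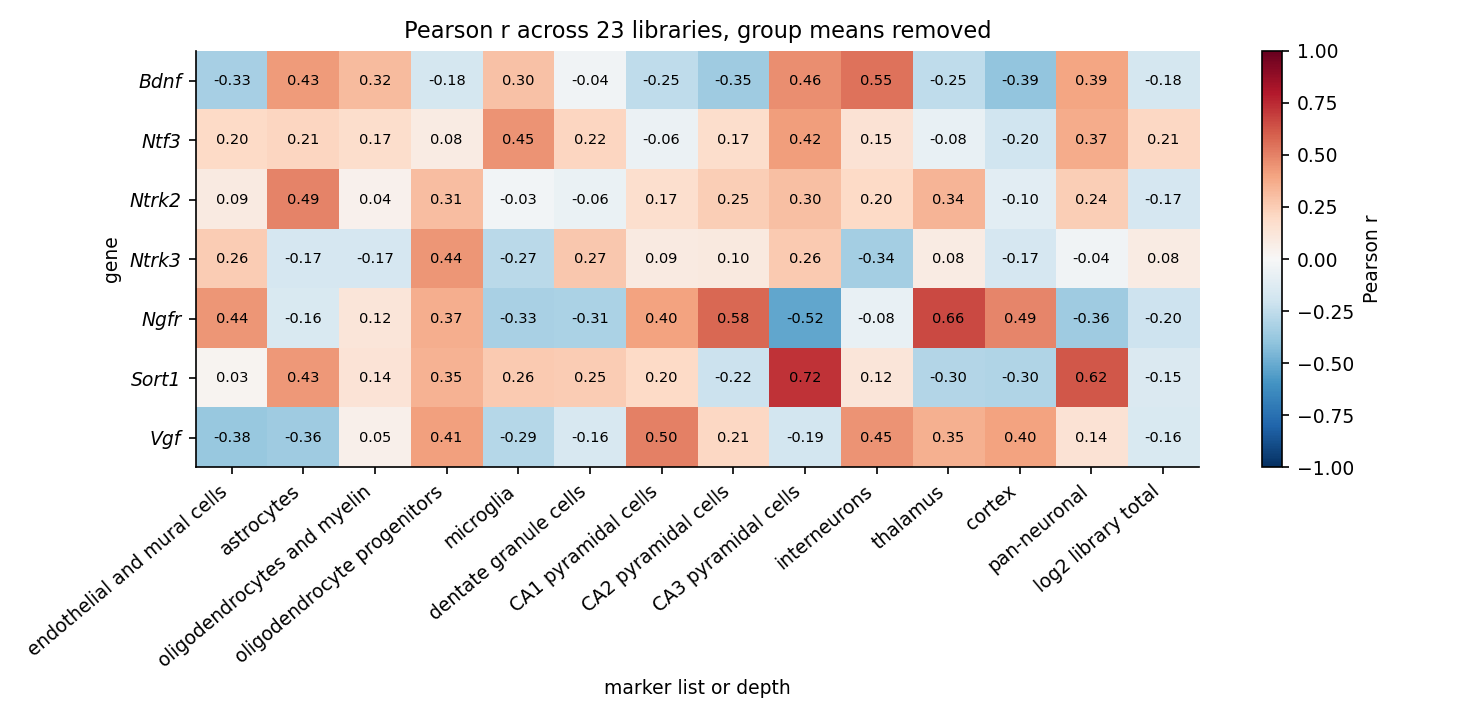
Pearson r of each member (rows) with each marker list and with log2 library total (columns) over 23 libraries after removal of group means, coloured from -1 to 1. The highest values were those of Sort1 with CA3 markers (0.72) and Ngfr with thalamus markers (0.66).

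**Figure D5:**
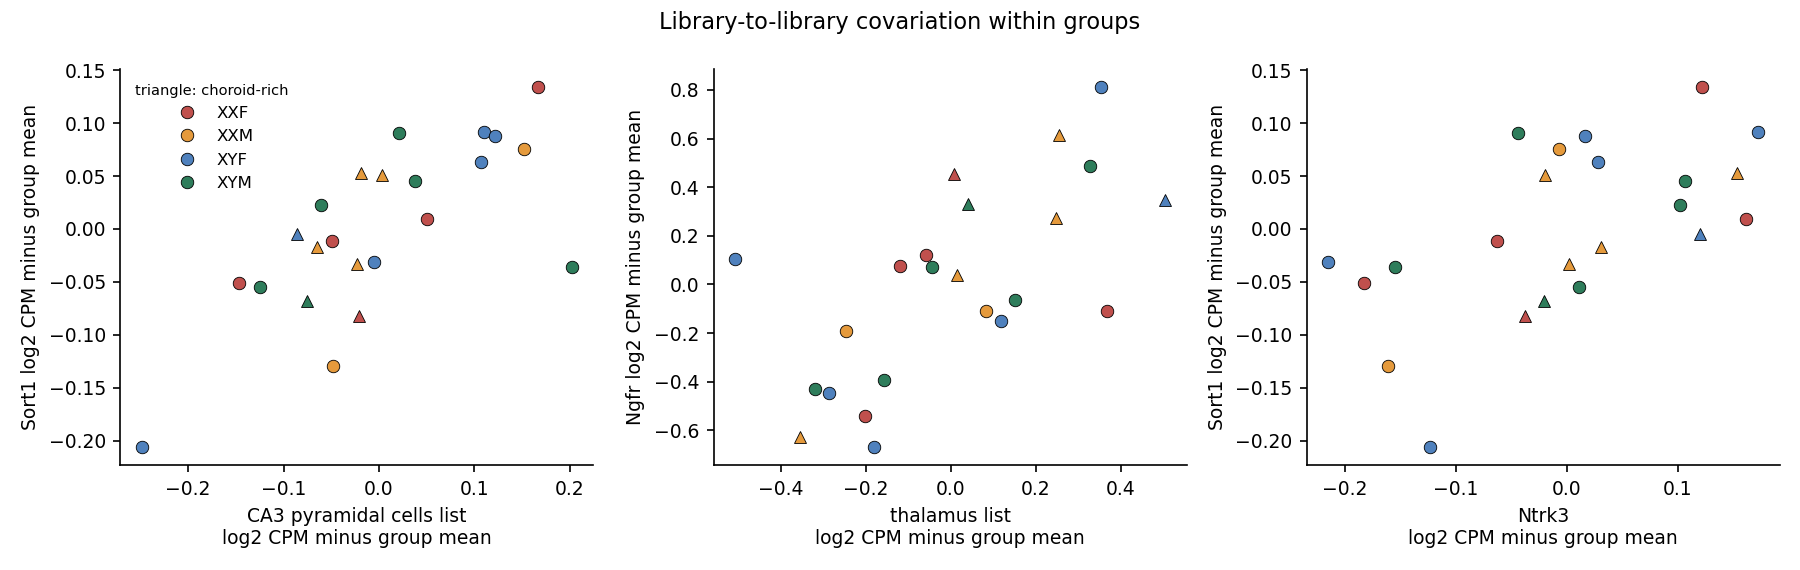
Log2 CPM minus the group mean for Sort1 against CA3 markers, Ngfr against thalamus markers and Sort1 against Ntrk3, with 1 point per library coloured by group and triangles for choroid-rich libraries. The lowest point of the first panel is XYF replicate 4, without which r was 0.59 instead of 0.72.

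The genes most alike to each member across the 23 libraries, by Pearson r of group-centred log2 CPM, are given as a description with no test, since they are the top of all other genes in the table. Bdnf was most like Scg2, the dense-core vesicle protein secretogranin II (r = 0.86), then Rprd1a (0.81) and Eif4a1 (0.81). Ntf3 was most like Fcer1g, an Fc receptor chain of myeloid cells (0.77), then Erf (0.74) and Mrpl55 (0.73). Among the genes most like Ntrk2 were Sesn3 (0.85) and Abat, which breaks down GABA (0.85). For Ntrk3 they were C230081A13Rik (0.89), Dock4 (0.86) and the synaptic adhesion protein gene Tenm2 (0.85). Ngfr was most like S100a11 (0.85), the guidance cue gene Sema3f (0.79) and Ier3 (0.75). Sort1 was most like Cnksr2, a scaffold at excitatory synapses (0.92), and Srr, which makes D-serine, was close behind (0.91). Vgf was most like Rnpep (0.83), Rap1gap (0.81) and the neuronal phosphatase gene Ptpn5 (0.81). In the 16 choroid-poor libraries the values of the genes named lay between 0.66 (Ier3) and 0.94 (Cnksr2).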

How the data were processed

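Per the labels' protocols, ribosomal RNA was depleted and strand-specific libraries from 500 ng of hippocampal RNA were read for 100 bases from both ends. The submitters' processing notes name mm10 and DESeq. Aligner, counting program and strand setting: not given in the sources used here. The deposited table holds estimated counts per gene, per the file headers raw values that need not be whole, and normalized values on a log2 scale. Its filter, per the file headers, required every library of some group to reach a raw value of 20, so genes low in each group are not analysed here.

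Groups came from the labels, and replicate numbers follow accession order. Counts were rounded and tested with edgeR (version 4.0.16) in R (version 4.3.3), with TMM scaling, a mean per group and 1 shared spread over all 23 libraries. Standard errors were taken as the size of the log2 fold change divided by the root of F. Log2 CPM used a prior count of 2. Other tools were DESeq2 (version 1.42.0) and limma (version 3.58.1, voom with and without sample quality weights, and the deposited log2 values). Libraries over 1000 CPM on the choroid list were called choroid-rich, a split made after seeing the data. Fits and correlations were tested on simulated data (200 genes changed). Lengths and overlaps came from GENCODE's GRCm38 annotation, start windows from RefSeq (GRCm38.p6), which matched 4 of 7 members. The members and lists were chosen with earlier results of these data known. Named genes are all members, the gene of the pathway lists with the smallest p per main contrast, and the 3 genes most alike to each member; some genes under this rule are not reported here. Precision is limited by the number of animals, and Poisson intervals cover counting error only.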

Additional observations from a re-analysis of the deposited data

How the results depend on the processing

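No member passed an adjusted p of 0.05 in any of the 9 comparisons under the 33 alternatives tried, and the smallest adjusted p of a member result was 0.102. Ngfr was not tested where at least 5 CPM in at least 5 libraries was required. Of 855 member fold changes under alternatives, 9 changed sign, all of values near 0 or with wide intervals. Sample quality weights turned Sort1's sex chromosome effect to 0.00385 and Ngfr's interaction to 0.0271. Bdnf's sex chromosome effect was -0.0163 with a choroid plexus covariate and -0.0128 without the choroid-rich libraries, where Ntrk2's interaction was 0.133. Leaving out 1 library at a time gave -0.00423 to 0.0587 for Bdnf's and -0.0261 to 0.00574 for Sort1's sex chromosome effect, and -0.00604 to 0.152 for Vgf's interaction.

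Counts over all genes moved more. The sex chromosome effect called 39 genes, against 60 with DESeq2, 68 with quality weights, 63 with the choroid covariate and 24 without the choroid-rich libraries. The gonad effect called 22, against 11 with the stricter filter, 98 with DESeq2, 76 with quality weights, 42 with the choroid covariate and 13 with depth as a covariate. DESeq2 called 1 for XXM against XXF (0 with edgeR), 47 for XYM against XYF (31) and 54 for XYM against XXF (18), where quality weights called 123. XXM against XYF called 69, but 45 with the stricter filter and 43 without the choroid-rich libraries, which also gave 10 for XYM against XXM (16). Leaving out 1 library gave 17 to 85 for the gonad effect (85 without XXF replicate 5, 49 without XYM replicate 1, 42 without XYF replicate 1, 34 without XYF replicate 5). It gave 0 to 3 for the interaction (1 without XYF replicate 1, 3 without XYM replicate 1) and 12 to 36 for XYM against XXF (36 without XYM replicate 6). For XYM against XYF it gave 19 to 50, with 50 without XYM replicate 1 and 19 or 20 without XYF replicate 2 or XYM replicates 2, 4, 5 and 6.

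Without centring on group means, 2 member pairs and 2 relations with marker lists passed. With centring none did, and leaving out 1 library then gave 0 to 1 of each. Uncentred r was 0.63 for Sort1 with Ntrk2, 0.66 with Ntrk3, 0.74 with CA3 markers and 0.65 for Ngfr with thalamus markers. The cause of these moves was not tested. No paired analysis was possible because the labels give no replicate numbers shared between groups. Depth limits Ngfr most, at 27 to 103 counts per library.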
